A study of Rattus norvegicus with 6 samples.

Results

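Chaperones are proteins that help others fold, and the genes described here are the heat shock proteins, the DnaJ proteins, the subunits of the cytosolic chaperonin, the heat shock factors Hsf1 and Hsf2, and the co-chaperone Bag3. They were taken by gene name, as every row of the expression table that met a name rule. A name had to begin with Hspa, Hspb, Hspd, Hspe or Hsph, or with Hsp and a digit. Names that began with Dnaja, Dnajb, Dnajc or Cct and a digit were also taken, as were the 3 names Hsf1, Hsf2 and Bag3. The names in Hspb include Hspbp1 and Hspbap1, which carry no family number after these letters. The rule found 98 of the 27321 rows. Of these, 73 were named for a single gene, 23 were named for 2 genes and 2 merged overlapping genes (Cct8+Usp16 and Hspa12b+RGD1311739), whose reads cannot be assigned to either gene.

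RNA was sequenced from the tip of the kidney inner medulla (IM tip) of male Sprague-Dawley rats aged 3 months. The STZ group (n = 3) had received streptozotocin, a toxin of the insulin-producing beta cells, at 62.5 mg/kg into the tail vein, and the control group (n = 3) had received vehicle. Tissue was taken 15 days after the injection, and the rats carried no transgene. The values are normalized counts, that is the uniquely mapped reads of a gene divided by 1 size factor per library, and they are not divided by gene length, so levels are compared between groups and not between genes.

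HSP70 proteins bind unfolded stretches of other proteins, DnaJ proteins (also called HSP40) deliver clients to them and set off their ATP hydrolysis, and nucleotide exchange factors reset the cycle. HSP90 proteins act later, on nearly folded clients such as kinases and steroid receptors, and the small heat shock proteins hold unfolded proteins until the ATP-driven chaperones take them. In stressed cells the transcription factor HSF1 binds heat shock elements, runs of inverted GAA and TTC units, before the inducible genes, and in the inner medulla, where salt and urea are concentrated, several chaperones are known for their part in tolerance of hypertonicity.

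To show what these elements look like, the 250 bases before the annotated start of 3 genes are printed from RefSeq (GRCr8 build), 5′ to 3′ on the strand of the gene. Hsp90ab1, at chr9:22930173-22930422 on the plus strand, was chosen for the lowest p among the chaperones, Hsph1, at chr12:10427118-10427367 on the plus strand, as the inducible gene with the lowest p, and Hspd1, at chr9:64084038-64084287 on the minus strand, for its 3-unit elements. Capitals mark 2-unit elements (GAANNTTC or TTCNNGAA) and 3-unit elements (GAANNTTCNNGAA or TTCNNGAANNTTC).
Hsp90ab1: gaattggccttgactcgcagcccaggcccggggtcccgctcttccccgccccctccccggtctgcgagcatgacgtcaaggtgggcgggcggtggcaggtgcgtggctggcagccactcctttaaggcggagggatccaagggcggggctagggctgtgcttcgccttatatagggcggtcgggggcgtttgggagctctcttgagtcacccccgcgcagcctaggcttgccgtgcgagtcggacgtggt
Hsph1: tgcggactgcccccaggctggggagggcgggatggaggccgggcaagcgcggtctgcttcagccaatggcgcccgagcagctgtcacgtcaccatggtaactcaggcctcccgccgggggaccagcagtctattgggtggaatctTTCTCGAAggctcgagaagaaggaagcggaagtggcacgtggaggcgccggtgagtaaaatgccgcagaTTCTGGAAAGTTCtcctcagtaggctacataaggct
Hspd1: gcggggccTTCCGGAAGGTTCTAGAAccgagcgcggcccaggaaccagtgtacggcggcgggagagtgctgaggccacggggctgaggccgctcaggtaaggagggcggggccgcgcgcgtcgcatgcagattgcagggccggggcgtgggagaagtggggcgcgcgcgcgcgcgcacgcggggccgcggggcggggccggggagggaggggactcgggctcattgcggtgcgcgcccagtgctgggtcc

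Each of these motifs covers both strands, and a 3-unit element always holds 2-unit elements. In the Hsph1 window a 3-unit element ran from base -36 to base -24 before the start, and a separate 2-unit element from -105 to -98. The Hspd1 window held 2 overlapping 3-unit elements between bases -242 and -225. The Hspd1 and Hspe1 genes lie head to head, and their promoter entries share 211 bases, so that the elements of both genes are the same bases. No such run of letters was found in the Hsp90ab1 window.

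RefSeq promoters were matched for 58 of the 75 rows named for a single gene or merged. A 2-unit element was in 16 of these 58 windows (27.6%), against 4534 of 33469 windows of the same length for all promoter entries (13.5%). The chaperones had 1 window per gene symbol, while the entries were not reduced to 1 per symbol. A 3-unit element was in 3 of 58 (5.17%), against 222 of all windows (0.663%). The 3 were Hsph1, Hspd1 and Hspe1, and the elements of Hspd1 and Hspe1 are the same bases. By class, 2-unit elements were in 5 of 7 windows of inducible cytosolic genes (Dnaja1, Hsph1, Hspb1, Dnajb1 and Hspb8), 3 of 7 of mitochondrial genes, 4 of 21 of constitutive cytosolic genes, 2 of 8 of chaperonin genes and 1 of 13 of genes of the endoplasmic reticulum (ER). Of the heat shock factors and Bag3, 1 of 2 windows held such an element, that of Bag3. These are matches of letters and were not measured as binding sites.

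The 6 libraries held between 3412311 and 5575171 reads on the rows of the table. Groups were compared with limma on log2(normalized count + 1) over the 13486 rows with a mean of at least 5, and every log2 difference below is the log2 of the fold change, STZ over control, on that scale, with its SE and a Benjamini-Hochberg adjusted p over all rows tested. The rats are separate animals in each group. All 3 control libraries were read on a single lane of the sequencer and the STZ libraries on other lanes, so that effects of the lane and of STZ cannot be told apart. Control replicate 3, the library with the fewest reads, was the lowest of its group in 51 of 73 chaperone rows tested, against 39.0% of all rows tested, and control replicate 1 was the highest in 42, against 38.1%. Markers of other kidney cell types also differed between the groups. The lists were not limited to cells of the IM tip, and which of these cells the dissected tissue held was not tested. Summed normalized counts of endothelial markers were 6168 to 7982 in control and 3022 to 3358 in STZ libraries (4 of 5 listed genes found, 2 lower past the threshold), a sum made up mostly of Emcn, while Pecam1 overlapped. Those of thick ascending limb markers ran from 917 to 1632 and from 174 to 539 (2 of 4 found, 1 lower), those of urothelial markers from 79.3 to 124 and from 420 to 501 (4 of 5 found, 2 higher, Upk1a overlapping), and those of smooth muscle and pericyte markers from 352 to 398 and from 721 to 744 (4 of 7 found, 1 higher). This last sum was carried by Tagln (means of 222 ± 36.9 and 558 ± 22.6, SD, n = 3), while Actg2, at 8.71 ± 4.41 and 2.60 ± 1.52, had all STZ values below the controls, Des and Rgs5 overlapped, and the median log2 difference of the list was 0.12. The summed markers of collecting duct principal cells, an epithelium of this tissue (10944 to 18958 and 18434 to 35479, 6 of 6 found), of proximal tubule (3 of 4 found) and of leukocytes (5 of 5 found) overlapped between the groups, with no gene past the threshold. Within these lists Aqp2 (higher in STZ libraries), Hsd11b2 and Aqp1 (both lower) had groups that did not overlap. No marker found was at 0 in all libraries. The part of these cells in the chaperone values was not tested. In whole tissue, fewer cells of a type and less RNA per cell cannot be told apart.

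Of the 98 rows, 73 had enough reads to be tested, and no chaperone passed an adjusted p of 0.05 in limma, where 2.1% of all rows tested passed. The lowest adjusted p was that of Hsp90ab1 (0.0618). At an unadjusted p under 0.05 there were 6 of 73 (8.22%), with 14.7% of all rows as background. Of these, 3 had higher values in STZ libraries (Dnajc8, Dnajc16 and Dnajc22; background 7.75%) and 3 lower values (Hsp90ab1, Hsph1 and Dnajc10; background 6.99%). By edgeR and by DESeq2 on the recovered reads, 1 chaperone passed, Hsp90ab1 in both, with a background of 2.13% and 6.63% of the rows with an adjusted p. The control and STZ values did not overlap in 17 of 73 (23.3%), where 20.3% of all rows did not overlap. Among the chaperones, 6 (8.22%) had higher and 11 (15.1%) lower STZ values, against 10.1% and 10.3% of all rows. Log2 differences were below 0 in 44 of 73 (60.3%) and in 49.5% of all rows tested, and their medians were −0.09 and 0.0056.

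**Figure D1:**
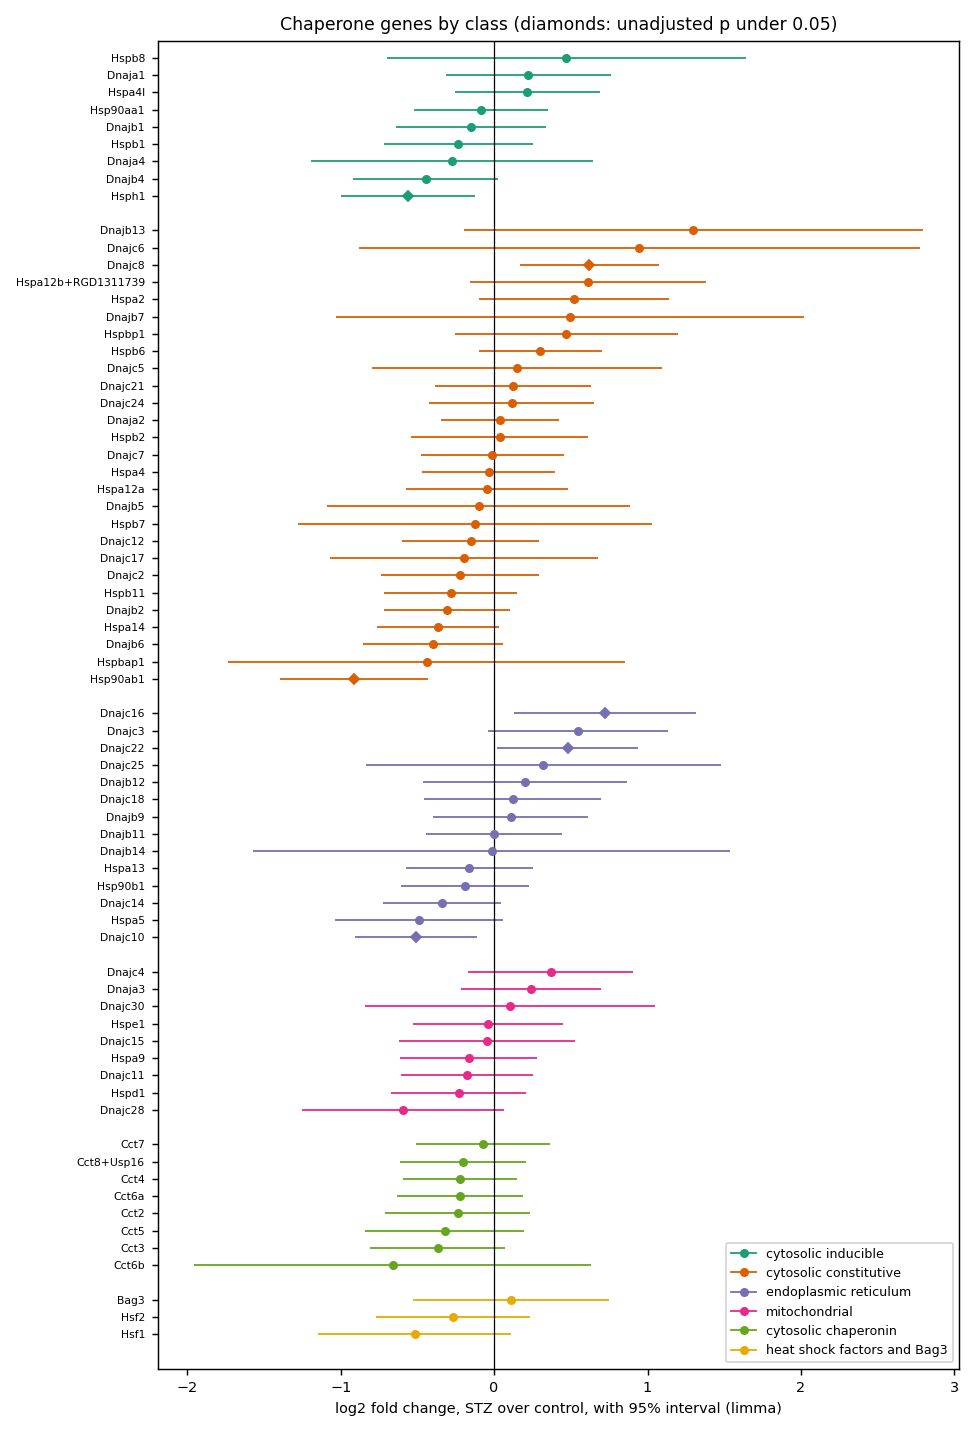
Log2 difference, STZ over control, of the chaperone rows named for single genes or merged that were tested, with 95% intervals from limma (x axis) and genes grouped by class (y axis). Diamonds mark the 6 genes with an unadjusted p under 0.05. Most intervals cross 0, and the 8 chaperonin rows all lie left of it.

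The lowest p among the chaperones fell on 1 gene of the cytosolic HSP90 pair. Hsp90ab1 (rn4, chr9:11033469-11038987) encodes HSP90 beta, the form made at all times. It had 10434, 9868 and 7645 normalized counts in controls and 5409, 4875 and 4474 in STZ libraries, with replicates 1, 2 and 3 in this order here and throughout. All STZ libraries were below all control libraries. The means were 9316 ± 1475 and 4919 ± 469 (SD, n = 3), a ratio of 0.528, and the log2 difference was −0.91 (SE 0.22, 95% interval −1.40 to −0.43, adjusted p = 0.0618 in limma). It missed the threshold there and passed it in 9 of 19 alternatives, among them edgeR (adjusted p = 0.046) and DESeq2 (adjusted p = 6.15e-05). Control replicate 3 was the control library nearest to the STZ group, and without it limma gave a log2 difference of −1.05 (adjusted p = 0.0362). With each of the other libraries left out it stayed above the threshold, at up to 0.258 without control replicate 2.

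Hsp90aa1 (chr6:135413622-135419147) encodes HSP90 alpha, the stress-inducible form. It had 2390, 1828 and 1833 normalized counts in controls and 2133, 1876 and 1669 in STZ libraries, which overlapped. The means were 2017 ± 323 and 1893 ± 232 (SD, n = 3), with a log2 difference of −0.09 (SE 0.20, 95% interval −0.52 to 0.35, adjusted p = 0.92). Hsp90b1 (GRP94), the form of the ER, had 1178, 1353 and 1614 in controls and 1319, 1138 and 1154 in STZ libraries, also overlapping, with a log2 difference of −0.19 (95% interval −0.61 to 0.23, adjusted p = 0.747).

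The ratio of Hsp90ab1 to Hsp90aa1 within a library was chosen after the values were seen. It was 4.37, 5.40 and 4.17 in controls and 2.54, 2.60 and 2.68 in STZ libraries. The groups lay apart, and the STZ libraries lay closer together than the controls. Their means were 4.65 ± 0.660 and 2.60 ± 0.0723 (SD, n = 3; two-sided exact permutation p = 0.1, the smallest that 3 against 3 can give). The ratio of Hsp90ab1 to Hsp90b1 was 8.86, 7.29 and 4.74 in controls and 4.10, 4.28 and 3.88 in STZ libraries, which did not overlap either. Hsp90ab1 alone took 0.219, 0.232 and 0.201% of a control library's reads and 0.116, 0.110 and 0.112% of an STZ library's. All 98 rows together took 1.17, 1.20 and 1.11% in controls and 1.01, 0.951 and 0.964% in STZ libraries, and without Hsp90ab1 0.949, 0.967 and 0.913% and 0.897, 0.841 and 0.851%. The groups did not overlap in either sum of shares. A share of reads also depends on the reads of every other gene, and these sums were not compared as normalized counts.

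**Figure D2:**
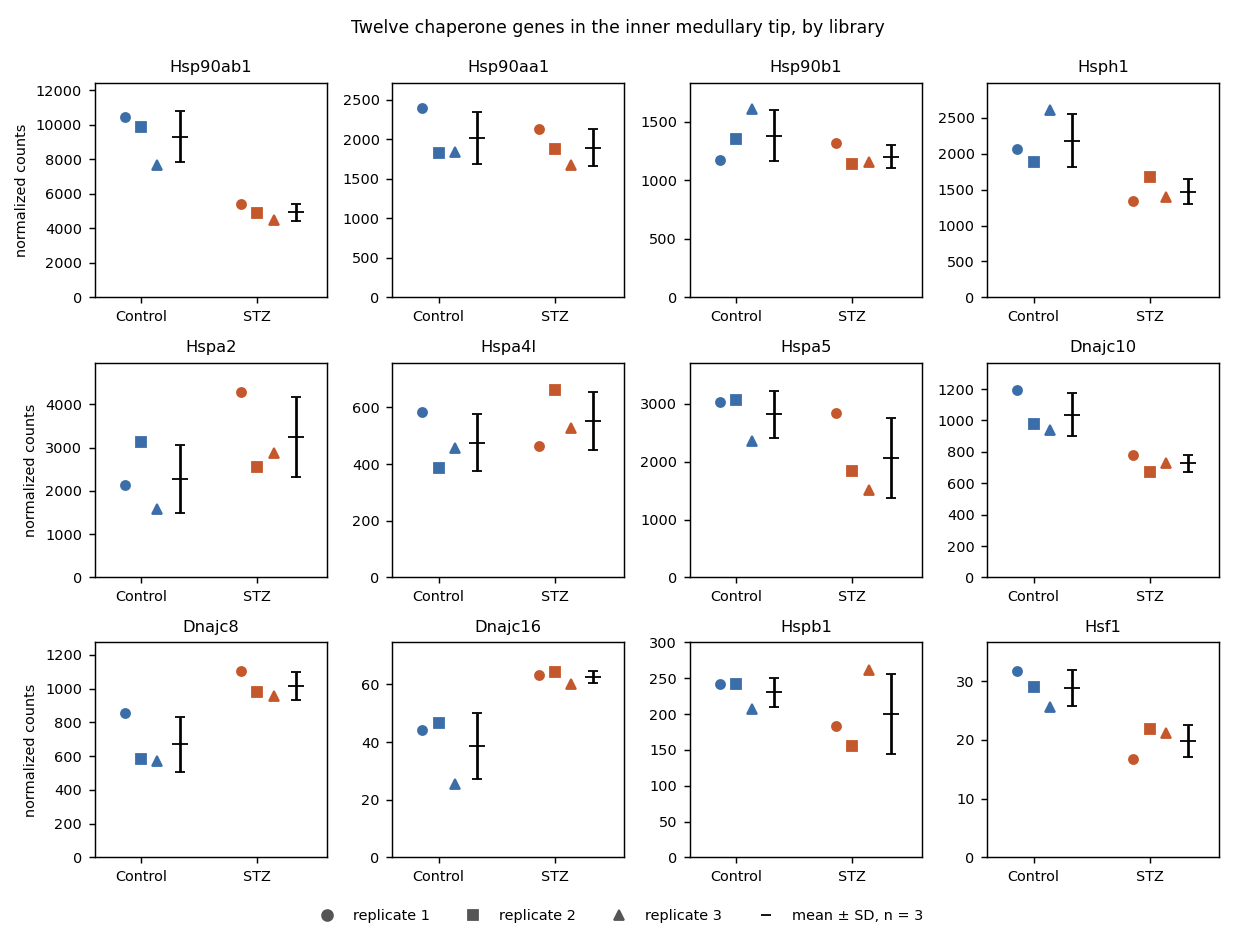
Normalized counts (y axes, from 0) of 12 chaperone genes in the 3 control and 3 STZ libraries (x axes); symbols mark the replicate number and bars the mean ± SD (n = 3). Hsp90ab1 lies between 7645 and 10434 in controls and between 4474 and 5409 in STZ libraries, while the Hsp90aa1 groups overlap.

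**Figure D3:**
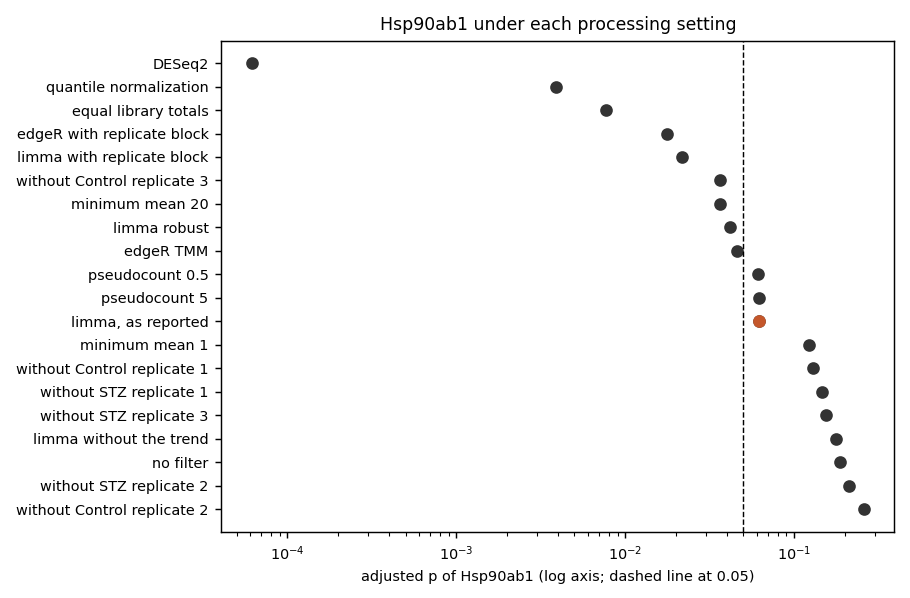
Adjusted p of Hsp90ab1 (x axis, log scale) under each processing setting (y axis), with the dashed line at 0.05 and limma as reported in orange. It runs from 6.15e-05 with DESeq2 to 0.258 without control replicate 2, with the reported value of 0.0618 just above the line.

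The inducible cytosolic class, which heat and other stresses raise through HSF1, counted 9 rows, all tested, and none passed. Their log2 differences had a median of −0.15 (range −0.56 to 0.47), and 6 were below 0. Hsph1 (HSP105, chr12:5798143-5811451), a nucleotide exchange factor of HSP70 in the HSP110 family, had 2058, 1886 and 2601 normalized counts in controls and 1341, 1669 and 1395 in STZ libraries. The groups did not overlap, although STZ replicate 2 came close to control replicate 2. The means were 2181 ± 374 and 1468 ± 176 (SD, n = 3), with a log2 difference of −0.56 (SE 0.20, upper limit of the 95% interval −0.13, adjusted p = 0.195 in limma). It carries the 3-unit element printed above.

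Hspa4l, known in kidney as osmotic stress protein 94 and of the same HSP110 family, had 584, 386 and 456 in controls and 463, 663 and 526 in STZ libraries. The values of both groups overlapped (log2 difference 0.22, SE 0.21, adjusted p = 0.745). Hspa4, the constitutive member of that family, had 302, 395 and 439 in controls and 370, 327 and 402 in STZ libraries, again overlapping, with a log2 difference of −0.04 (adjusted p = 0.971). The ratio of Hsph1 to Hspa4l, also chosen after the values were seen, was 3.52, 4.89 and 5.70 in controls and 2.89, 2.52 and 2.65 in STZ libraries, with all STZ values below all controls (two-sided exact permutation p = 0.1, the smallest possible). That of Hsph1 to Hspa4 was 6.80, 4.77 and 5.93 in controls and 3.62, 5.10 and 3.48 in STZ libraries, and overlapped (exact permutation p = 0.2).

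**Figure D4:**
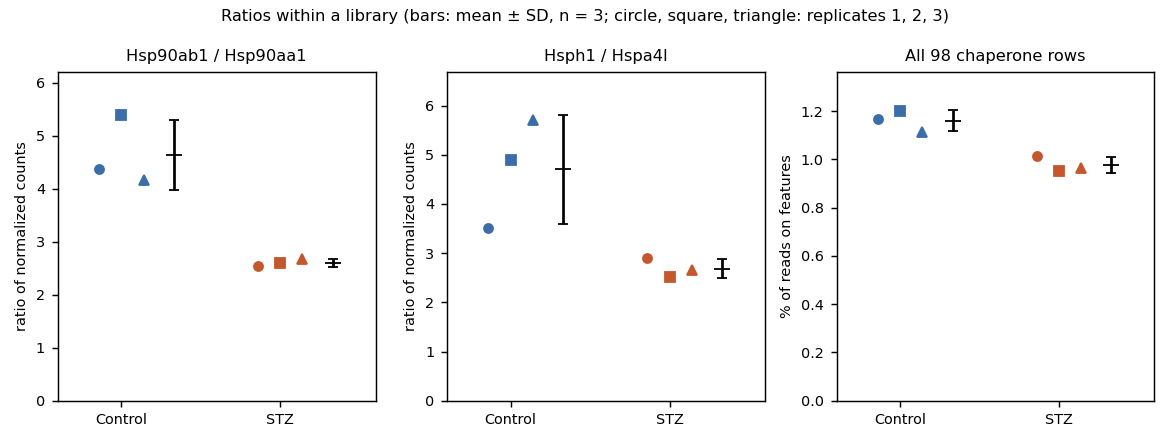
Ratio of Hsp90ab1 to Hsp90aa1 and of Hsph1 to Hspa4l in each library, and the share of reads that all 98 chaperone rows took in percent (y axes, from 0), by group (x axes), with bars for the mean ± SD (n = 3). In all 3 panels the control values lie above the STZ values, as for the first ratio with 4.17 to 5.40 against 2.54 to 2.68. The last panel gives shares of reads and not normalized counts.

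Among the inducible DnaJ genes, Dnaja1, a partner of HSP70 in the cytosol, had 4407, 3526 and 2765 normalized counts in controls and 5024, 4207 and 3228 in STZ libraries. The groups overlapped broadly (log2 difference 0.22, SE 0.24, adjusted p = 0.784). Dnajb1, the classical heat-induced HSP40, had 88.2, 116 and 140 in controls and 109, 92.0 and 104 in STZ libraries (log2 difference −0.15, adjusted p = 0.861). Dnajb4, a close relative of Dnajb1, had 201, 194 and 154 in controls and 167, 116 and 121 in STZ libraries. Only STZ replicate 1 reached into the control range (log2 difference −0.45, SE 0.21, adjusted p = 0.373). Dnaja4 was listed at 10.02 to 28.2 in controls and 12.9 to 18.6 in STZ libraries (log2 difference −0.28, adjusted p = 0.864).

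Of the inducible small heat shock proteins, Hspb1 (HSP25 in rodents), which binds unfolded proteins and actin, had 242, 242 and 207 in controls and 183, 155 and 262 in STZ libraries. STZ replicate 3 held the highest value of all and the other STZ replicates the lowest (log2 difference −0.23, SE 0.22, adjusted p = 0.729). Hspb8, which works with Bag3 in the clearance of misfolded proteins, had at most 10.9 normalized counts in any library (log2 difference 0.47, adjusted p = 0.793). Hspa1a, the most strongly heat-induced HSP70 gene, stood outside the name rule, in a row that merged it with another gene model. That row had 47.2, 31.3 and 35.6 in controls and 36.2, 32.6 and 47.2 in STZ libraries, with means of 38.0 ± 8.21 and 38.7 ± 7.58 (SD, n = 3; log2 difference 0.03, SE 0.27, adjusted p = 0.981). Hspa1a has near-identical copies in the genome, and only uniquely mapped reads were counted, so its value is uncertain. No row of the table began with the name Hspa8 or Hspa1b, so these genes were not analysed here and are missing from the class and family summaries.

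The factors that act on the inducible genes were measured at low or moderate counts. Hsf1, the main heat shock transcription factor, had 31.8, 29.0 and 25.6 normalized counts in controls and 16.7, 21.8 and 21.1 in STZ libraries. All STZ values were below the controls, at a depth of at most 38 reads per library (log2 difference −0.52, SE 0.29, adjusted p = 0.45 in limma). Hsf2, a related factor, had 484, 361 and 289 in controls and 374, 289 and 267 in STZ libraries, which overlapped (log2 difference −0.27, adjusted p = 0.68). Bag3, a heat-induced co-chaperone of HSP70, had 24.6, 25.9 and 30.1 in controls and 37.1, 29.7 and 22.1 in STZ libraries (log2 difference 0.11, adjusted p = 0.93).

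The constitutive cytosolic class held 30 rows, of which 27 were tested, with log2 differences from −0.91 to 1.30 and a median of −0.01. Of these, 14 were below 0 and 13 above. The groups did not overlap in 8 of the 27 (29.6%), against 20.3% of all rows tested. Of these 8, 3 were higher and 5 lower, with 10.1% and 10.3% of all rows as background. Dnajc8, a DnaJ protein associated with pre-mRNA splicing, had 858, 582 and 569 in controls and 1107, 982 and 954 in STZ libraries. All STZ values were above the controls. The means were 670 ± 163 and 1014 ± 81.4 (SD, n = 3), with a log2 difference of 0.62 (SE 0.20, 95% interval 0.17 to 1.07, adjusted p = 0.163), and it passed in 1 alternative, quantile normalization (adjusted p = 0.0478).

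Hspa2, an HSP70 best known from sperm development, had 2134, 3133 and 1584 in controls and 4294, 2553 and 2869 in STZ libraries. STZ replicate 1 stood highest, and the other 2 STZ libraries lay below control replicate 2 (log2 difference 0.52, SE 0.28, adjusted p = 0.437). Hspa14, an HSP70 that works at the ribosome with the DnaJ protein Dnajc2, had 1075, 850 and 808 in controls and 702, 710 and 691 in STZ libraries. These did not overlap, and the STZ values lay close together (log2 difference −0.37, SE 0.18, adjusted p = 0.386). Dnajc2 had 57.4, 55.7 and 80.1 in controls and 52.9, 50.4 and 60.2 in STZ libraries (log2 difference −0.22, adjusted p = 0.771).

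Other constitutive genes with groups apart had smaller differences. Dnajb2 had 211, 260 and 208 in controls and 198, 167 and 182 in STZ libraries (log2 difference −0.31, adjusted p = 0.507). Dnajb6, a suppressor of protein aggregation, had 174, 153 and 122 in controls and 121, 99.9 and 118 in STZ libraries (log2 difference −0.40, adjusted p = 0.422). In that gene, STZ replicate 1 and control replicate 3 lay side by side. Hspb11 (IFT25), a protein of transport within cilia, had 100.5, 101 and 87.9 in controls and 78.9, 84.1 and 74.3 in STZ libraries (log2 difference −0.28, adjusted p = 0.583). Hspb6, a small heat shock protein of smooth muscle, had 361, 359 and 321 in controls and 419, 498 and 373 in STZ libraries, all above the controls (log2 difference 0.30, adjusted p = 0.508). Of the smooth muscle markers given above, Tagln also had all STZ values above the controls and Actg2 all below, and the part of these cells in the Hspb6 value was not tested. Dnajb13, a protein of sperm tails and motile cilia, was listed at 1.11 to 4.10 in controls and at 6.92 to 11.1 in STZ libraries, from at most 12 reads in a library (log2 difference 1.30, SE 0.68, adjusted p = 0.422).

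Genes of this class with overlapping groups included Dnajc7, which links HSP70 and HSP90, with means of 512 ± 99.5 and 508 ± 91.0 (SD, n = 3; log2 difference −0.01, 95% interval −0.48 to 0.46), and Dnaja2, a partner of constitutive HSP70, with 384 ± 21.8 and 395 ± 41.5 (log2 difference 0.04, 95% interval −0.35 to 0.42). In Dnajc6 (auxilin, which uncoats clathrin vesicles) and Dnajb7, no library was above 24.5 normalized counts, and their intervals of −0.88 to 2.78 and −1.03 to 2.02 left the direction undetermined at this depth.

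The ER class counted 14 rows, all tested, with a median log2 difference of 0.05. The groups did not overlap in 5 of the 14 (35.7%), against 20.3% of all rows tested. Of these 5, 3 were higher and 2 lower, with 10.1% and 10.3% of all rows as background. Hspa5 (BiP), the HSP70 of the ER, had 3033, 3076 and 2356 normalized counts in controls and 2839, 1843 and 1514 in STZ libraries. STZ replicate 1 lay within the control range and the other STZ replicates below it, with means of 2822 ± 404 and 2065 ± 690 (SD, n = 3; log2 difference −0.49, SE 0.25, adjusted p = 0.404). Dnajc10 (ERdj5), a DnaJ protein that reduces disulfide bonds of misfolded proteins, had 1196, 976 and 942 in controls and 782, 670 and 728 in STZ libraries. The groups did not overlap, and the log2 difference was −0.51 (SE 0.18, 95% interval −0.91 to −0.11, adjusted p = 0.2). Dnajc14 also had groups apart, at 447, 475 and 404 against 349, 381 and 318 (log2 difference −0.34, adjusted p = 0.413).

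In the other direction within the ER class, Dnajc16 had 44.1, 46.5 and 25.6 in controls and 63.1, 64.3 and 60.2 in STZ libraries. The STZ values lay close together, and control replicate 3 was far below the other controls (log2 difference 0.72, SE 0.27, adjusted p = 0.227). Dnajc3 (p58IPK), a BiP partner that also inhibits the kinase PERK, had 55.4, 32.8 and 60.1 in controls and 65.0, 76.2 and 70.3 in STZ libraries (log2 difference 0.55, SE 0.27, adjusted p = 0.378). Dnajc22 had 73.8, 58.7 and 57.9 in controls and 91.9, 86.1 and 87.3 in STZ libraries (log2 difference 0.48, adjusted p = 0.311). In all 3 genes the STZ libraries lay above the controls, and none had more than 99 reads in a library. Of the other BiP partners, Dnajb11 (ERdj3) had means of 205 ± 6.30 and 208 ± 43.5 (SD, n = 3; log2 difference 0.00, 95% interval −0.44 to 0.44) and Dnajb9 (ERdj4) of 208 ± 40.6 and 225 ± 52.3 (log2 difference 0.11, adjusted p = 0.913). Hspa13, an HSP70 of the microsomes, had 656 ± 58.4 and 591 ± 95.5 (log2 difference −0.16, adjusted p = 0.805).

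The mitochondrial class counted 9 rows, all tested, none with an unadjusted p under 0.05, and a median log2 difference of −0.04. Hspd1 (HSP60), the barrel of the mitochondrial chaperonin, had 3854, 3641 and 2805 in controls and 3063, 2731 and 2913 in STZ libraries. The STZ values lay around control replicate 3 (log2 difference −0.23, SE 0.20, adjusted p = 0.693). Hspe1 (HSP10), its lid, had 2626, 1822 and 1697 in controls and 2116, 2159 and 1629 in STZ libraries, fully overlapping (log2 difference −0.04, 95% interval −0.53 to 0.45, adjusted p = 0.97). The single row named for Hspd1 and Hspe1 together had at most 1 read in a library.

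Hspa9 (mortalin), the HSP70 that draws proteins into mitochondria, had 682, 685 and 472 in controls and 606, 499 and 515 in STZ libraries (log2 difference −0.17, adjusted p = 0.819). Dnajc15, a DnaJ protein of the inner membrane, had 414, 309 and 190 in controls and 296, 293 and 256 in STZ libraries, with the STZ values inside the control range (log2 difference −0.04, adjusted p = 0.972). Dnajc28 was the mitochondrial gene whose groups did not overlap, at 37.9, 37.4 and 39.0 in controls and 16.7, 31.7 and 29.1 in STZ libraries (log2 difference −0.59, SE 0.30, adjusted p = 0.4). Its controls lay close together, and STZ replicate 1 was far below the other STZ libraries. Dnaja3 (Tid1), a partner of mortalin, had means of 105 ± 17.0 and 123 ± 13.2 (SD, n = 3; log2 difference 0.24, adjusted p = 0.687).

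The cytosolic chaperonin, also called CCT or TRiC, is a double ring of 8 different subunits that folds actin and tubulin. Of its 9 rows 8 were tested, and all 8 log2 differences were below 0, with a median of −0.23. The lowest, −0.66, was that of Cct6b, a paralog of Cct6a with at most 12 reads in a library (95% interval −1.96 to 0.63), and the other 7 ran from −0.37 to −0.07. None had an unadjusted p under 0.05. The groups did not overlap in 1 of 8, Cct4 (12.5%, against 20.3% of all rows tested). Cct3 had 2338, 2248 and 1658 in controls and 1708, 1662 and 1425 in STZ libraries, so control replicate 3 lay within the STZ range (log2 difference −0.37, SE 0.20, adjusted p = 0.443). Cct5 had 2239, 2191 and 1286 in controls and 1616, 1504 and 1325 in STZ libraries, with control replicate 3 the lowest of all (log2 difference −0.32, SE 0.24, adjusted p = 0.612). Cct7 had 2730, 2372 and 2050 in controls and 2129, 2587 and 2072 in STZ libraries, overlapping (log2 difference −0.07, adjusted p = 0.935).

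Cct4 had 389, 388 and 439 in controls and 344, 336 and 360 in STZ libraries, and control replicate 3 was here the highest (log2 difference −0.22, SE 0.17, adjusted p = 0.632). The merged row Cct8+Usp16 had means of 1942 ± 278 and 1676 ± 83.6 (SD, n = 3; log2 difference −0.20, adjusted p = 0.717). Summed over all 9 chaperonin rows, including the merged row and the low Cct6b and Cct8l1, there were 11144, 10202 and 7921 normalized counts in controls and 8473, 8661 and 7578 in STZ libraries (two-sided exact permutation p = 0.3). Control replicate 3 lay among the STZ libraries. Subunits of 1 complex measured in the same 6 libraries are not independent of each other. Tcp1, a further subunit of the ring, shares a merged row with another gene model. That row stood outside the name rule and was not analysed here, so the sum is not that of the whole complex.

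**Figure D5:**
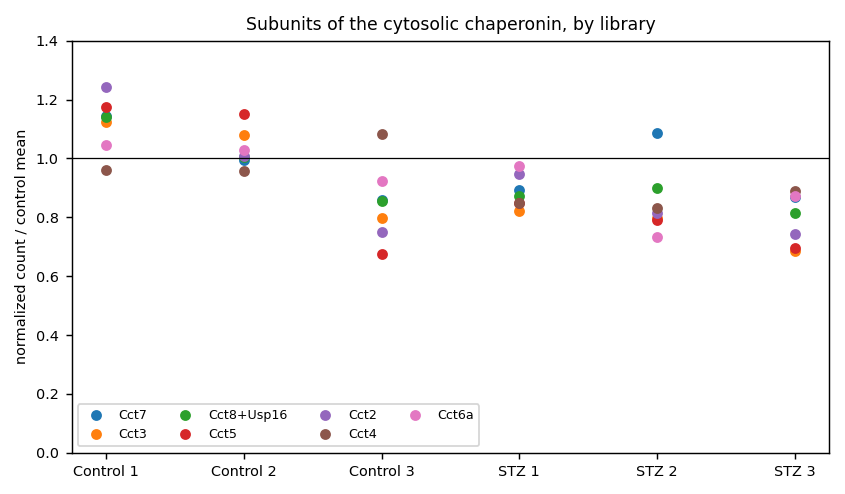
Normalized count of each chaperonin row with a mean of at least 20, divided by its control mean (y axis, from 0), in the 6 libraries (x axis), with 1 colour per row and the line at 1 marking the control mean. Of the 21 STZ values 20 lie under the line, as do 6 of the 7 values of control replicate 3.

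Set out by protein family, the 3 HSP90 genes under the name rule were all below 0 on the log2 scale, with a median of −0.19. Trap1, the HSP90 of mitochondria, stood outside the rule. It had 242, 246 and 157 normalized counts in controls and 309, 233 and 236 in STZ libraries, which overlapped (log2 difference 0.29, SE 0.23, adjusted p = 0.645 in limma). Of 10 HSP70 and HSP110 rows 7 were below 0 (median −0.10, range −0.56 to 0.61). The 6 tested genes named Hspb with a number were divided 3 and 3 (median −0.04). They include Hspb11, described above as a protein of transport within cilia, and leave out the small heat shock protein Cryab. Of the DnaJ genes, 3 of 4 of type A were above 0 (median 0.13), 5 of 11 of type B (median −0.02) and 12 of 21 of type C (median 0.11). The type C genes share little with each other beyond the J domain. Of the 21, 4 had an unadjusted p under 0.05, where 14.7% of all rows tested did. Of these 4, Dnajc8, Dnajc16 and Dnajc22 were higher in STZ libraries and Dnajc10 lower.

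The partners of the chaperone cycle were followed by a list of 28 genes of co-chaperones and the HSP90 cycle. The list also held chaperones, such as Trap1, Cryab and Tcp1, and the heat shock factor Hsf4. Of the 28, 21 were found under their own name and 20 tested, with a median log2 difference of 0.01. Of the 20, 1 rose and 1 fell past the threshold. Bag5, which opens the nucleotide pocket of HSP70, had 176, 150 and 170 normalized counts in controls and 331, 382 and 281 in STZ libraries. The groups were well apart, with means of 165 ± 14.1 and 331 ± 50.4 (SD, n = 3; log2 difference 0.99, SE 0.19, adjusted p = 0.0265 in limma). Grpel2, an exchange factor of the mitochondrial HSP70, had 525, 474 and 450 in controls and 263, 270 and 293 in STZ libraries. These did not overlap, with means of 483 ± 38.3 and 275 ± 15.9 (SD, n = 3; log2 difference −0.81, SE 0.17, adjusted p = 0.0393 in limma). Bag5 passed in 15 of 19 alternatives and Grpel2 in 13. The call on Bag5 was lost in limma without the trend (adjusted p = 0.16) and without control replicate 2 (0.129), STZ replicate 1 (0.0779) or STZ replicate 2 (0.135). That on Grpel2 was lost without the trend (adjusted p = 0.171) and without control replicate 1 (0.104), control replicate 2 (0.151), or STZ replicate 1 (0.125), 2 (0.165) or 3 (0.0858). Its paralog Grpel1 had 1383, 1176 and 892 in controls and 1007, 1022 and 877 in STZ libraries (log2 difference −0.23, adjusted p = 0.704).

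Co-chaperones of HSP90 did not pass. Fkbp5 had 23.6, 24.4 and 28.9 in controls and 36.2, 36.6 and 34.1 in STZ libraries, all above the controls (log2 difference 0.46, adjusted p = 0.449 in limma). Unc45a had 63.6, 69.4 and 66.8 in controls and 55.7, 50.4 and 63.2 in STZ libraries, all below the controls (log2 difference −0.24, adjusted p = 0.703 in limma). Stip1 (HOP), which hands clients from HSP70 to HSP90, had 1285, 993 and 942 in controls and 1027, 1172 and 904 in STZ libraries (log2 difference −0.05, SE 0.20, adjusted p = 0.963). Ptges3 (p23), which stabilizes the closed HSP90, had 424, 398 and 563 in controls and 550, 546 and 629 in STZ libraries (log2 difference 0.33, adjusted p = 0.481). Cryab, the small heat shock protein alpha B-crystallin, known for its abundance in the inner medulla, had 42081, 33341 and 29539 in controls and 35100, 26757 and 29448 in STZ libraries, which overlapped (log2 difference −0.19, SE 0.28, adjusted p = 0.86).

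Of 13 further genes of ER folding, 9 were found and tested and none passed (median log2 difference 0.09). Hyou1, the HSP110 relative that resets BiP, had 454, 528 and 404 in controls and 373, 286 and 212 in STZ libraries, all below the controls (log2 difference −0.70, SE 0.23, adjusted p = 0.161). Calr (calreticulin) had 1402, 1351 and 1243 and 1525, 1365 and 1356 (log2 difference 0.09, adjusted p = 0.908). Of 5 genes of the tonicity response none passed. Nfat5, its transcription factor, had 3032, 1982 and 2884 in controls and 3878, 2997 and 2207 in STZ libraries (log2 difference 0.19, adjusted p = 0.844), and Slc5a3, its myo-inositol transporter, 3245, 4754 and 4496 and 2761, 3009 and 2181 (log2 difference −0.65, SE 0.22, adjusted p = 0.188). Of 7 immediate early genes, which respond to handling of tissue as well as to signals, 6 were found, 4 were tested and none passed, and their summed normalized counts ran from 83.1 to 122 in controls and from 92.4 to 127 in STZ libraries.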

How the data were processed

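RNA-seq of the IM tip of 3 control and 3 STZ rats was re-analysed. Per the labels and methods, the authors aligned reads to rn4 with STAR 2.3.1t, counted uniquely mapped reads per gene and divided each library by a DESeq 1.16.0 size factor; the deposited signal values are these normalized counts. Whether counting used strand, and by which program, is not given in the sources used here, so overlapping or antisense genes may share reads. Each value was a whole multiple of a single step per library (0.763 to 1.11 normalized counts; 100% whole within 0.01), which gave back the reads used by edgeR and DESeq2. Libraries held 3412311 to 5575171 reads, and no molecular identifiers were used, so precision is limited by PCR as well as by depth.

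The main test was limma 3.58.1 (R 4.3.3) with an intensity trend, on log2(normalized count + 1), over rows with a mean of at least 5 in the 6 libraries, with a Benjamini-Hochberg threshold of 0.05 over all rows tested. Single sums and ratios were compared by two-sided exact permutation tests (smallest p 0.1). edgeR 4.0.16 and DESeq2 1.42.0 were alternatives, as were other pseudocounts, filters, scalings and each library left out. edgeR with a replicate block was chosen after seeing the data. Scripts were tested on simulated data. Python 3.11.15, pandas 2.3.3 and scipy 1.17.1 were used.

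The genes, classes and lists were chosen with earlier results of these data known. Named were all inducible genes, Hsf1, Hsf2 and Bag3, the 4 rows with the highest mean in each other class, rows with groups apart and a log2 difference of at least 0.5 in size, rows with no library above 3 reads, and listed genes that passed. Other genes named, such as Hspa4, Hspb6, Dnajc22, Cct4 and Hyou1, and the ratios, were chosen after their values were seen. Coordinates are those of the deposited table (rn4), promoters those of RefSeq (GRCr8).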

Additional observations from a re-analysis of the deposited data

How the results depend on the processing

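Over all rows, limma called 283; DESeq2 called 599, quantile normalization 522 and limma without the trend 31, and with a library left out the count ran from 86 (without STZ replicate 2) to 341 (without control replicate 3). Limma called 0 chaperones; DESeq2, edgeR TMM, equal library totals, robust limma and a minimum mean of 20 each called 1 (Hsp90ab1), quantile normalization 2 (with Dnajc8), and leaving out a library 0 to 1. Chaperones with groups apart numbered 17, and 20 to 32 with a library left out, where smaller groups overlap less by construction. With a library left out these were 27.4 to 43.8% of the chaperones tested, against 26.4 to 35.6% of all rows tested. Without control replicate 3 the chaperones with groups apart numbered 32 (43.8%, against 35.6% of all rows). In that fit 11 chaperones had an unadjusted p under 0.05 (15.1%, against 17.9%). No scaling moved the median log2 difference of all rows by over 0.1. Of 601 values of 32 named members, 10 reversed, all with a library left out, over these ranges of log2 difference: Cct7 −0.18 to 0.030, Hsp90aa1 −0.18 to 0.041, Hspe1 −0.16 to 0.15 and Dnajc15 −0.35 to 0.21, each positive without control replicate 1 (Hspe1 and Dnajc15 also without STZ replicate 3), Dnaja4 −0.68 to 0.021 and Dnajc15 positive without control replicate 2, Dnajb1 −0.33 to 0.0044, positive without control replicate 3, and Bag3 −0.062 to 0.30, negative without STZ replicate 1. The cause was not tested.

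Both groups carry the replicate numbers 1 to 3. Deviations from the group means correlated at r = 0.395, −0.061 and 0.323 for the same numbers, so the numbers were not taken to pair the rats. With the replicate block limma called 561 rows and 1 chaperone, and edgeR 544 and 1, in both cases Hsp90ab1 (adjusted p = 0.0216 and 0.0176). The libraries numbered 2 correlated best with another number (control 2 with STZ 1, r = 0.107, and STZ 2 with control 3, r = 0.22), the other libraries with their own. Depth limits genes of few reads, such as Hsf1, Dnajb13 and Hspb8.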

Other observations

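Of the 23 rows named for 2 genes, which carry the names of overlapping or neighbouring genes, 21 had a mean under 5. In 20 of the 98 rows no library was above 3 reads: 18 of these were rows named for 2 genes (such as Hsp90ab1,Slc35b2, Dnaja1,Aqp3 and Cct5,Fam173b), and the others were Dnajb3 and Dnajc5b. For Hspa5,Psmd5 and Hspa14,D4A4W9_RAT all 6 libraries were at 0 reads. The tested rows named for 2 genes were Dnajc17,LOC691418, with 114, 47.3 and 54.5 normalized counts in controls and 41.8, 47.5 and 39.2 in STZ libraries (log2 difference −0.63, SE 0.32, adjusted p = 0.403 in limma), and Hspb2,Cryab, with at most 16.4 in any library (log2 difference 0.44, adjusted p = 0.86). Hspd1-ps2, a row named as a pseudogene of Hspd1, had 13.3, 10.7 and 4.45 in controls and 8.36, 2.97 and 12.0 in STZ libraries. Counting used uniquely mapped reads only, so reads that match it and the parent gene alike would be left out.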
